A study of Mus musculus with 16 samples.

Results

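The regions described here are the H3K9me3 ChIP-seq peaks that share at least 1 bp with the body of a protein-coding mouse gene whose symbol begins with Zfp. There were 1572 such peaks among the 79800 H3K9me3 peaks of 4 sorted skin cell populations. EA-HFSCs held 599 of them among 42277 peaks, LC-HFSCs held 149 among 1414, non-EA-HFSCs held 369 among 17873 and non-LC-HFSCs held 455 among 18236. The peaks in Zfp genes therefore made up 1.42% of the EA-HFSC list, 10.5% of the LC-HFSC list, 2.06% of the non-EA-HFSC list and 2.50% of the non-LC-HFSC list. The mm9 annotation used here has 374 Zfp genes with a coding transcript among 22359 protein-coding genes, which is 1.67% of them.

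The study asked how trimethylation of histone H3 differs between dividing and resting hair follicle stem cells. EA-HFSCs are bulge stem cells sorted as CD34+ and α6-integrin+ at postnatal day 22 to 25, in early anagen, and LC-HFSCs are cells with the same sorting markers at day 38 to 44, in late catagen, when they rest. Non-EA-HFSCs and non-LC-HFSCs are the CD34- and α6-integrin+ cells of the same ages, which the study describes as mainly epidermis and lower outer root sheath. The labels give male CD1 x FVB mice, wild-type, 15 to 20 of them pooled, so a list stands for a pool and not for an animal. The study's methods state that animals of both sexes served for most of its experiments, without naming these. Chromatin was cut with micrococcal nuclease and precipitated, and the labels name 2 sources of the H3K9me3 antibody without saying which served which population.

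Each population has 1 list of H3K9me3 peaks, called by the authors on the pooled reads of 2 experimental replicates, with IgG from these cells as the control. A peak has a position and a score, which is 10 times the negative log10 of its p-value, and the lowest score in the 4 lists is 40. With 1 list per population no difference between populations could be tested against the spread of replicates, and no p-value is given. Depth is not part of the lists, and a score depends on it, so a score is read within its own list. Intervals below are 95% Wilson intervals and cover counting error only. Those of peak shares count several peaks of 1 gene as independent. As a check of the sort labels, an H3K4me3 peak lay at the start of Cd34, the surface antigen used for sorting, in both CD34+ populations and in neither CD34- population. Of the other bulge regulators looked at, Lhx2 had one in both stem cell lists and in non-EA-HFSCs, while Sox9, Nfatc1 and Tcf7l1 had one in all 4, so these starts do not separate the sorts. Krt5 and Krt14, keratins of basal skin cells, had one in all 4 populations, and no population had one at the annotated start of Ptprc or Pecam1, markers of leukocytes and endothelium. Itga6, the gene of the integrin used in the sort, and Trp63, a basal keratinocyte regulator, also had none within 1 kb of their annotated starts. Markers of other dermal cells were not all at 0, since Pdgfra of fibroblasts and Dct of melanocytes had an H3K4me3 peak in all populations but non-LC-HFSCs, and their part in the results was not tested.

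Most Zfp genes encode proteins with tandem C2H2 zinc fingers, short repeated units in which a pair of cysteines and a pair of histidines hold a zinc ion and the stretch between them can read DNA. Many also carry a KRAB domain near the amino terminus, which recruits Trim28 and, through it, the H3K9 methyltransferase Setdb1. The family grew by tandem duplication, so that many members stand side by side in clusters, and the fingers of a protein are usually encoded together in the last exon. H3K9me3 is a mark of condensed, silent chromatin, and its presence on the 3′ exons of KRAB zinc finger genes is known from other mammalian cells.

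The sequences under the last-exon peaks show this repeat. The lines give 84 bases each, from the codon of the first cysteine of a finger to the end of the link before the next finger, 5′ to 3′ on the coding strand. They come from the mm9 genome, and capitals mark the 4 codons of the cysteines and histidines. The genes were chosen because each has a last-exon peak in all 4 populations and because the unit shown lies whole within a peak of every list. Only units with the conserved link described below were considered, so the link is also fixed by the choice. The units are at chr9:22083422-22083505 on the minus strand for Zfp810, chr17:33140502-33140585 on the plus strand for Zfp952, chr11:50713826-50713909 on the minus strand for Zfp2, chr5:139048250-139048333 on the minus strand for Zfp68, chr7:13078683-13078766 on the plus strand for Zfp606 and chr2:149943396-149943479 on the minus strand for Zfp120. The last line is the most frequent base at each place over the 2922 units of this length in the last exons of Zfp genes.
Zfp810: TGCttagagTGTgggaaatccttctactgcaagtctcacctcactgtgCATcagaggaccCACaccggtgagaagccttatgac
Zfp952: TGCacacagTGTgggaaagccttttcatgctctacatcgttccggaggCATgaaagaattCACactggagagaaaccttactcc
Zfp2: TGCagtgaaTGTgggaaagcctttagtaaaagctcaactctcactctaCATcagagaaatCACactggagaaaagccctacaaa
Zfp68: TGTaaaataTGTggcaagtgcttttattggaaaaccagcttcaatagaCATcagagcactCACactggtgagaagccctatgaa
Zfp606: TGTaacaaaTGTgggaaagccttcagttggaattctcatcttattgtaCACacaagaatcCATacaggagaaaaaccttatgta
Zfp120: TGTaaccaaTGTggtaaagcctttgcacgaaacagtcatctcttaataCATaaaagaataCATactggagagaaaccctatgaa
Consensus: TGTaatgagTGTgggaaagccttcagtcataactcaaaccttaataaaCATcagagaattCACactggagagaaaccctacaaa

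The cysteine and histidine codons are fixed by the way the units were found. To compare genes, 10 units were read from genes with a last-exon peak, all chosen to carry the conserved link described below. Of all 2922 units 43.9% carried it, so the 10 do not stand for units in general. Their 45 pairs were identical at 51.2% to 88.1% of bases, with a median of 64.3%. Over all 2922 units the median identity to the consensus was 66.7%. Units under a peak stood at a median of 69.0% in EA-HFSCs, LC-HFSCs and non-EA-HFSCs and 67.9% in non-LC-HFSCs, and those outside a peak at 65.5% to 66.7%. The conserved link of 5 residues followed the finger in 51.1% to 56.2% of units under a peak and in 37.5% to 42.1% of the others.

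Within a gene the units can follow each other without a gap. The stretch below was chosen for this spacing, and how common it is was not measured. The next line shows 3 neighbouring units of Zfp110, at chr7:13434843-13435094 on the plus strand, because the highest-scoring H3K9me3 peak of the whole non-EA-HFSC list lies on this gene, known as neurotrophin receptor interacting factor.
Zfp110: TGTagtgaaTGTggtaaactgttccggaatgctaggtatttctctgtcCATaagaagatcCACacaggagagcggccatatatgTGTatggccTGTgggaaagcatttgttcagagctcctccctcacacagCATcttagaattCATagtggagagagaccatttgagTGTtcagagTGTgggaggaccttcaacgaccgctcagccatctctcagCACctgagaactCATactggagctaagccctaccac
These 252 bases differ at 15 places, or are 94.0% identical, when set beside the same 3 units of Zfp369, a second gene of this type on another chromosome. Near-identical copies can share reads. Of the 70-base windows of the last exon of Zfp110, 95.2% occur once in the genome on either strand, and of those of Zfp369 99.8%. Over the 370 Zfp last exons of at least 70 bases, 85.4% had 90% or more of their windows unique, against 90.3% of 1605 last exons of other genes on chromosome 11. Last exons with a non-EA-HFSC peak reached this in 74.6% of cases and those without in 91.2%. In LC-HFSCs the shares were 87.1% and 85.0%. The part of read placement in the peaks was not tested.

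Peaks in Zfp genes differed in size between the lists. Their median width was 759 bp in EA-HFSCs, 2115 bp in LC-HFSCs, 1763 bp in non-EA-HFSCs and 654 bp in non-LC-HFSCs, where the whole lists had medians of 649, 1629, 1072 and 578 bp. In non-EA-HFSCs the median score was 125.8 in Zfp genes and 61.9 over the list, and 55.3% of peaks in Zfp genes scored 100 or more against 23.4% of the list. The same shares were 20.7% and 4.47% in non-LC-HFSCs, 26.8% and 13.9% in LC-HFSCs, and 15.2% and 13.6% in EA-HFSCs. Zfp genes held 37 of the 100 highest-scoring peaks of non-EA-HFSCs, 28 of those of LC-HFSCs, 22 of those of non-LC-HFSCs and none of those of EA-HFSCs. The best EA-HFSC peak in a Zfp gene ranked 405 in its list.

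Zfp genes carried H3K9me3 in every population, and the last exon separated them from other genes more than the gene body or the start did. At least 1 peak lay in the body of 266 Zfp genes in EA-HFSCs (71.1%, interval 66.3 to 75.5%), where 51.1% of all protein-coding genes had one. In LC-HFSCs it was 89 Zfp genes (23.8%, 19.8 to 28.4%) against 1.45% of all genes, in non-EA-HFSCs 161 (43.0%, 38.1 to 48.1%) against 13.4%, and in non-LC-HFSCs 175 (46.8%, 41.8 to 51.9%) against 22.2%. The last exon, taken as the 3′-most exon of the transcript with the longest coding sequence, had a peak in 95 Zfp genes in EA-HFSCs (25.4%, 21.3 to 30%), where 5.42% of all genes had one. It had one in 72 Zfp genes in LC-HFSCs (19.3%, 15.6 to 23.6%) against 0.572% of all genes, in 133 in non-EA-HFSCs (35.6%, 30.9 to 40.5%) against 1.67%, and in 103 in non-LC-HFSCs (27.5%, 23.3 to 32.3%) against 1.99%. In LC-HFSCs the 72 Zfp genes were 56.2% of the 128 genes with a last-exon peak.

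At gene starts, taken as 1 kb to either side of the annotated 5′ end, whether or not the peak reached into the body, the populations parted. A peak lay at the start of 218 Zfp genes in EA-HFSCs (58.3%, 53.2 to 63.2%), but 41.2% of all genes also had one there. In LC-HFSCs 10 Zfp genes had one (2.67%, 1.46 to 4.85%) against 0.148% of all genes, in non-EA-HFSCs 25 (6.68%, 4.57 to 9.68%) against 0.948%, and in non-LC-HFSCs 65 (17.4%, 13.9 to 21.5%) against 8.61%.

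**Figure D1:**
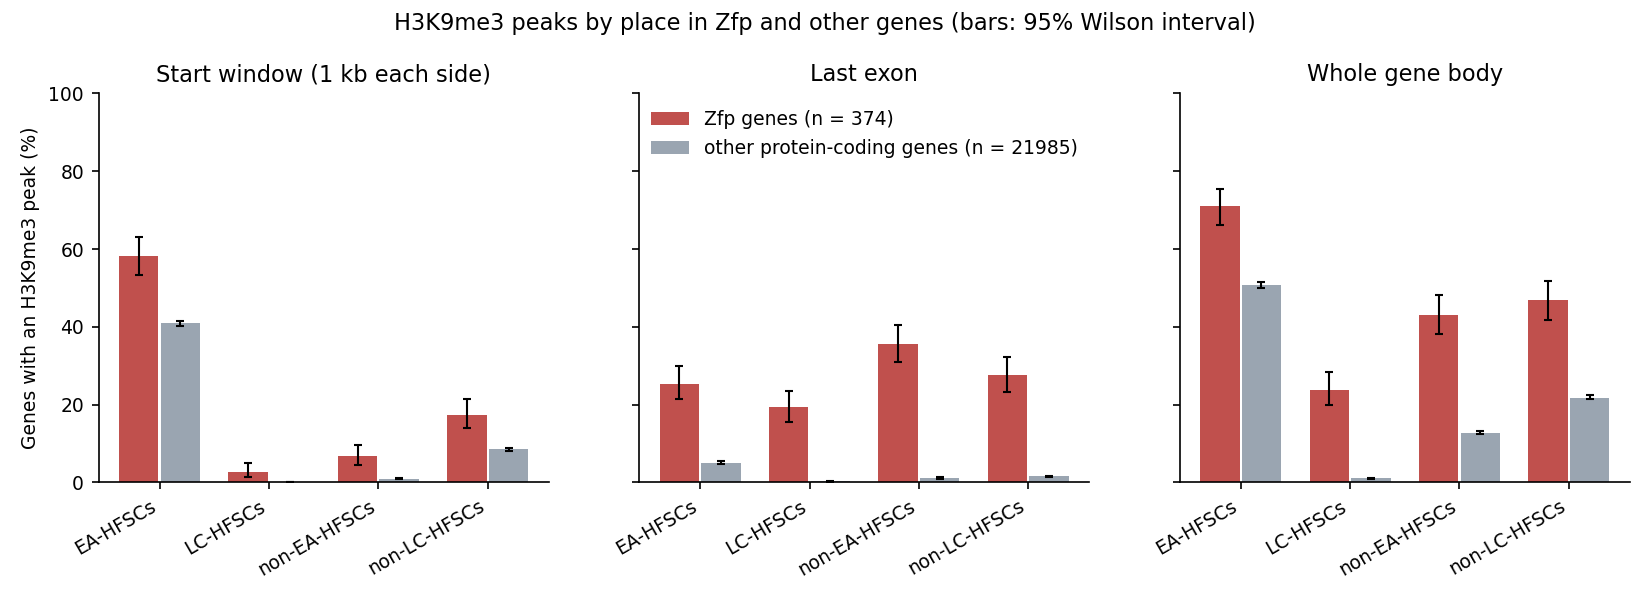
Percent of 374 Zfp genes and 21985 other protein-coding genes with at least 1 H3K9me3 peak in the start window, on the last exon or in the body, for the 4 populations, with 95% Wilson intervals as error bars. On the last exon the Zfp bars lie between 19.3% and 35.6% and those of other genes between 0.255% and 5.08%, while at the start the EA-HFSC bars of both sets are high (58.3% and 40.9%).

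Counted by peak instead of by gene, the order of the populations differed. Of the peaks in Zfp genes, 129 in EA-HFSCs touched a last exon (21.5%, 18.4 to 25.0%), 88 did so in LC-HFSCs (59.1%, 51.0 to 66.6%) and 152 in non-EA-HFSCs (41.2%, 36.3 to 46.3%), while non-LC-HFSCs had 159 such peaks (34.9%, 30.7 to 39.4%). Of peaks in other genes, 6.37%, 17.6%, 5.08% and 4.89% did. The order of these shares depended on the length of the lists, since among the 1414 highest-scoring peaks of each list the last-exon share was 59.1% in LC-HFSCs, 63.8% in non-EA-HFSCs and 60.2% in non-LC-HFSCs, with 16.7% of only 12 peaks in EA-HFSCs. A start window was touched by 204 of the peaks in Zfp genes in EA-HFSCs (34.1%, 30.4 to 37.9%), only 9 in LC-HFSCs (6.04%, 3.21 to 11.1%), by 21 in non-EA-HFSCs (5.69%, 3.75 to 8.54%) and 60 in non-LC-HFSCs (13.2%, 10.4 to 16.6%). In other genes the shares at the start were 41.1%, 5.57%, 2.19% and 18.8%. The window of 1 kb around the 3′ end was touched by 42.3% of the LC-HFSC peaks in Zfp genes, 31.4% of the non-EA-HFSC, 14.9% of the non-LC-HFSC and 9.52% of the EA-HFSC peaks. By their middle, most of the remaining peaks lay in introns, which held 45.4% of the EA-HFSC, 42.3% of the LC-HFSC, 61.8% of the non-EA-HFSC and 55.2% of the non-LC-HFSC peaks in Zfp genes.

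Zfp last exons are long, with a median of 2192 bp against 954 bp in other genes, and a long exon is met more easily by a peak. Among last exons of 2 to 4 kb, 41.6% of 161 Zfp genes and 2.05% of 3799 other genes had a peak in non-EA-HFSCs, and 22.4% and 0.526% in LC-HFSCs. Cover by base does not depend on exon length in this way. Peaks covered 14.1% of the bases of Zfp last exons and 1.91% of those of Zfp introns in LC-HFSCs, 26.3% and 6.15% in non-EA-HFSCs, 13.0% and 2.24% in non-LC-HFSCs, and 8.4% and 2.43% in EA-HFSCs. The first 1 kb of Zfp genes was covered to 40.6% in EA-HFSCs, 7.89% in non-LC-HFSCs, 3.94% in non-EA-HFSCs and 1.54% in LC-HFSCs. Last exons of other genes were covered to 2.97% in EA-HFSCs and to 0.195% to 0.794% in the other populations.

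**Figure D2:**
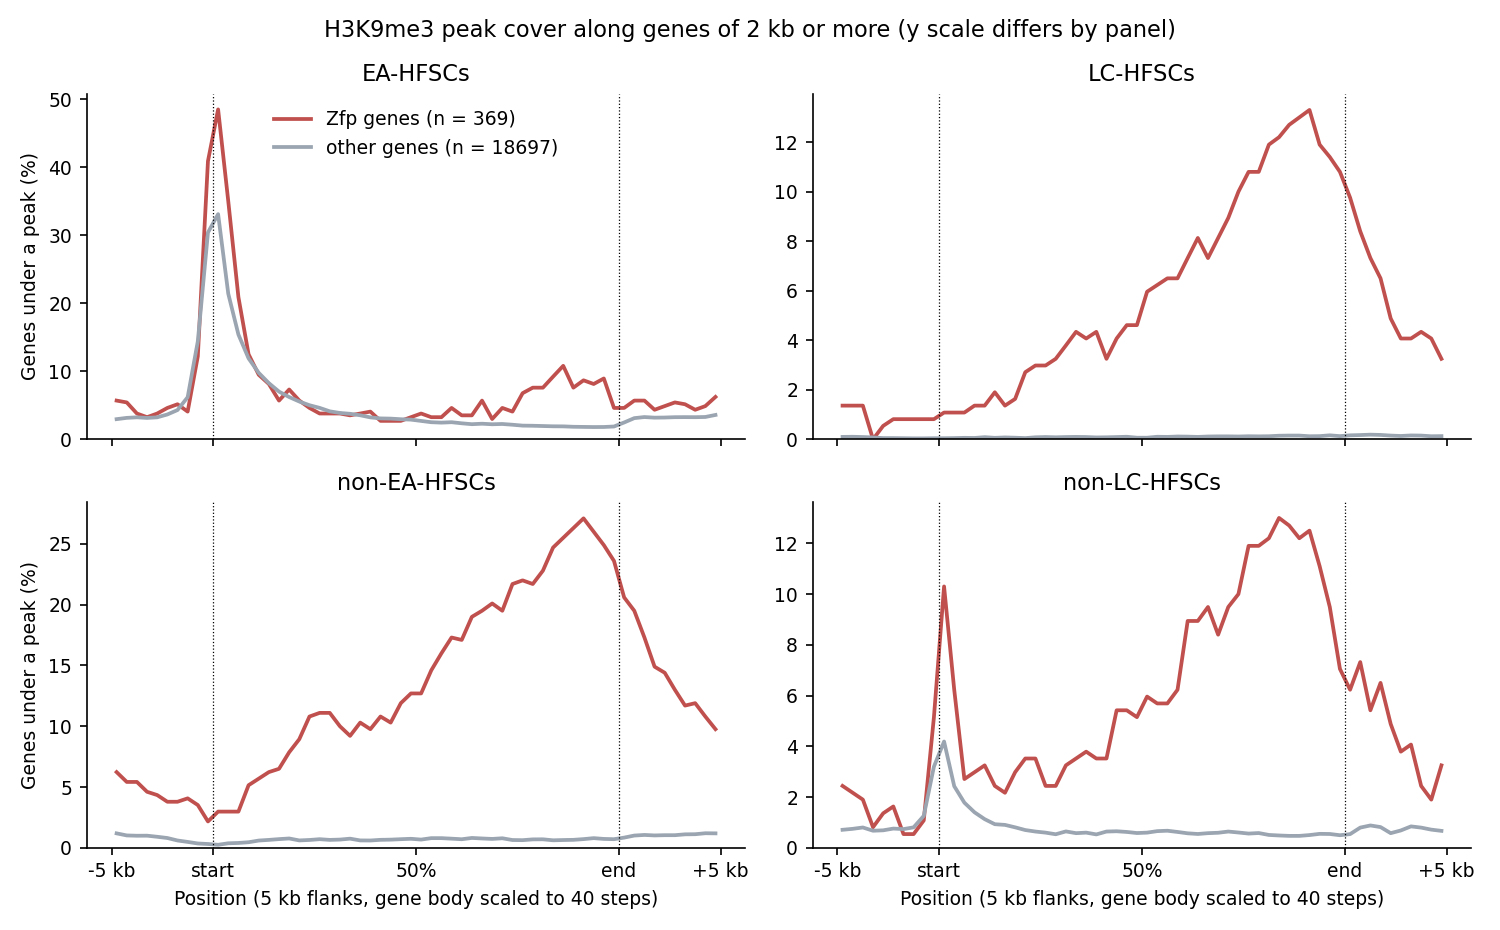
Percent of genes of at least 2 kb under an H3K9me3 peak at 40 steps along the scaled gene body and over 5 kb on either side, for 369 Zfp genes (red) and 18697 other genes (grey), 1 panel per population with its own vertical scale. In LC-HFSCs and non-EA-HFSCs the Zfp curve climbs through the gene to 13.3% and 27.1% at 91.25% of its length, in EA-HFSCs it stands at 48.5% at the start, and non-LC-HFSCs show a peak of 10.3% at the start and one of 13.0% at 83.75% of the length.

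Within the last exon the peaks lay over the finger array, from the first to the last finger, more than over the rest. Of the bases of the arrays, 42.7% were under a peak in non-EA-HFSCs, 25.1% in non-LC-HFSCs, 23.6% in LC-HFSCs and 13.0% in EA-HFSCs. Other coding bases of Zfp last exons were covered to 23.8%, 14.8%, 14.2% and 9.90%, and untranslated bases to 17.8%, 5.33%, 8.62% and 5.28%, in the same order. Last exons without a finger add to these other bases but not to the arrays. Differences between genes are therefore mixed in, and the contrast within single exons was not tested. Of all 3474 finger motifs of Zfp genes, 3022 (87.0%) are encoded in the last exon. Peaks overlapped 1480 of the 3474 motifs in non-EA-HFSCs (42.6%), 908 in non-LC-HFSCs (26.1%), 842 in LC-HFSCs (24.2%) and 492 in EA-HFSCs (14.2%). Where a last-exon peak lay on a gene with at least 2 fingers in that exon, it spanned the whole array in 57.5% of 146 cases in non-EA-HFSCs and 51.8% of 83 in LC-HFSCs. It did so in 14.2% of 155 cases in non-LC-HFSCs and 3.48% of 115 in EA-HFSCs, whose peaks are narrower.

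Of the 374 Zfp genes, 46 had a last-exon peak in all 4 lists and 208 in none. The count in all 4 lists was not made for other genes. The 46 genes had a median of 12.0 fingers, 37 of them (80.4%) matched the KRAB pattern used here and 30 stood in clusters. All 374 Zfp genes had a median of 9.0 fingers, with 197 matching the pattern and 174 in clusters. In 43 of the 46 genes the highest score was the one of non-EA-HFSCs. Their median last-exon score was 70.6 in EA-HFSCs, 93.9 in LC-HFSCs, 694.6 in non-EA-HFSCs and 130.5 in non-LC-HFSCs, and the median share of the exon under a peak was 35.1%, 77.4%, 100% and 55.9%. Scores of different lists rest on different depths, so these orders describe the lists as called.

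Zfp110 had the smallest sum of ranks of its last-exon scores over the 4 lists. Its last-exon score was 324.05 in EA-HFSCs, 93.53 in LC-HFSCs, 1824.21 in non-EA-HFSCs and 832.73 in non-LC-HFSCs. The non-EA-HFSC peak was 13104 bp wide and ranked 1 in its list, and the non-LC-HFSC peak was 4743 bp wide and ranked 8. Its relative Zfp369 scored 49.62, 306.42, 864.67 and 240.99 in the same order. The LC-HFSC peak of Zfp369, 7187 bp wide, was the highest of that list in a Zfp gene and ranked 6 among all LC-HFSC peaks. So the 2 relatives stood in opposite order in the 2 stem cell lists.

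Zfp810, with 10 fingers, scored 88.65 in EA-HFSCs, 298.00 in LC-HFSCs, 1153.26 in non-EA-HFSCs and 200.73 in non-LC-HFSCs, and its LC-HFSC peak ranked 8. Zfp952 scored 59.93, 216.40, 932.05 and 354.21 in the same order of populations. Zfp606 scored 70.07, 163.59, 970.95 and 182.44. In these 3 genes, whose finger units are printed above, the EA-HFSC score was the lowest of the 4.

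Zfp2 scored 121.48, 188.46, 934.93 and 159.11, Zfp68 scored 87.31, 99.11, 1057.83 and 207.69, and Zfp120 scored 78.59, 80.30, 1252.69 and 185.01. In Zfp68 and Zfp120 the EA-HFSC and LC-HFSC scores were close. Zfp933 went the other way, with 162.13 in EA-HFSCs and 51.43 in LC-HFSCs beside 1543.48 in non-EA-HFSCs and 180.06 in non-LC-HFSCs. Zfp945, with 18 fingers on a last exon of 6070 bp, scored 92.88, 94.24, 940.66 and 169.69. Peaks covered 17.0% of that exon in EA-HFSCs, 68.0% in LC-HFSCs, 81.5% in non-EA-HFSCs and 15.8% in non-LC-HFSCs. The exon was thus covered most in LC-HFSCs and non-EA-HFSCs.

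Between the stem cells of early anagen and those of late catagen, last-exon peaks of Zfp genes were kept more often than the rest of the H3K9me3 list. The LC-HFSC list had 0.0334 times as many peaks as the EA-HFSC list, and 0.0175 times as many in other protein-coding genes, but 0.249 times as many in Zfp genes. Genes with a last-exon peak stood at a ratio of 0.758 for Zfp genes, 72 against 95, and 0.0501 for other genes. Of the 95 Zfp genes with a last-exon peak in EA-HFSCs, 48 (50.5%, 40.6 to 60.4%) had one in LC-HFSCs, and 24 Zfp genes had one in LC-HFSCs only of the 2. Of 1117 other genes with a last-exon peak in EA-HFSCs, 23 (2.06%) had one in LC-HFSCs. Zfp genes with a peak at the start stood at a lower ratio, 0.0459, with 6 of 218 (2.75%, 1.27 to 5.87%) in both. Start peaks of other genes were fewer still in LC-HFSCs, at a ratio of 0.00256 and 0.111% kept of 8998, so that Zfp genes lay above other genes at both places. The 2 places are not separate, however. Of the 10 Zfp genes with a start peak in LC-HFSCs, 8 also had a last-exon peak there. Only 3 LC-HFSC peaks in Zfp genes touched a start and no last exon. Depth and antibody source cannot be told apart from the state of the cells in these lists. The study states that LC-HFSCs had more reads than EA-HFSCs and that their fewer peaks did not come from fewer reads.

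The number of peaks taken from each list decides this order. When only the 1414 highest-scoring peaks of each list were used, the length of the LC-HFSC list, Zfp genes held 12 peaks in EA-HFSCs, 149 in LC-HFSCs, 152 in non-EA-HFSCs and 123 in non-LC-HFSCs. The Zfp genes with a body peak were then 11 in EA-HFSCs against 89 in LC-HFSCs, in the opposite order to the full lists with 266 and 89. Of the 88 last-exon peaks of LC-HFSCs, 83 (94.3%, 87.4 to 97.5%) overlapped a non-EA-HFSC peak, where 86.9% of the 1265 LC-HFSC peaks outside Zfp genes also did. A non-LC-HFSC peak was overlapped by 78 (88.6%, 80.3 to 93.7%) against 51.2% outside Zfp genes, and an EA-HFSC peak by 66 (75%, 65.0 to 82.9%) against 40.4%. Seen from the other lists, 48.1% of the EA-HFSC, 55.3% of the non-EA-HFSC and 64.2% of the non-LC-HFSC last-exon peaks overlapped an LC-HFSC peak, against 1.56%, 6.10% and 4.84% of the peaks outside Zfp genes.

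The 25 Zfp genes with the highest LC-HFSC scores had body scores from 132.1 to 306.42. Of them 23 had an LC-HFSC peak on the last exon, 23 a non-EA-HFSC, 21 a non-LC-HFSC and 19 an EA-HFSC peak, 17 matched the KRAB pattern and 18 stood in clusters. Among all 374 Zfp genes the last-exon counts were 72, 133, 103 and 95 in the same order. The KRAB pattern was matched by 197 of the 374, and 174 stood in clusters. The LC-HFSC count of the 25 follows in part from their choice by LC-HFSC score. Zfp873, with 16 fingers in a gene of 2913 bp, scored 241.46 in LC-HFSCs, 60.50 in EA-HFSCs, 817.26 in non-EA-HFSCs and 159.92 in non-LC-HFSCs. Zfp160 had no EA-HFSC last-exon peak and scored 140.08 in LC-HFSCs, 688.74 in non-EA-HFSCs and 198.76 in non-LC-HFSCs. Zfp81 had none in EA-HFSCs either and scored 201.39, 689.86 and 54.98. Both had an EA-HFSC peak at the start, of score 124.46 and 214.26. The LC-HFSC peak on the last exon of Zfp81, 6371 bp wide, overlapped an EA-HFSC peak that lay off that exon. Zfp286 had a last-exon peak in LC-HFSCs (160.75) and non-EA-HFSCs (433.15) and in neither of the other lists. These 3 are among the 24 genes with a last-exon peak in LC-HFSCs and none in EA-HFSCs. Zfp35, Zfp329, Zfp943, Zfp936, Zfp958, Zfp942, Zfp759, Zfp763, Zfp748, Zfp712, Zfp146, Zfp850, Zfp605, Zfp458, Zfp420 and Zfp90 complete the 25. In Zfp329 and Zfp420 the LC-HFSC peak lay off the annotated last exon, which encodes none of the 12 fingers of Zfp329 and 6 of the 22 of Zfp420. The model of Zfp850 is 941 bp long and encodes no finger motif, so the annotated gene holds none of the array.

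In the CD34- cells fewer Zfp genes had a last-exon peak at the later age and more had a start peak. Zfp genes with a last-exon peak were 133 in non-EA-HFSCs and 103 in non-LC-HFSCs, with 94 in both, a ratio of 0.774, while other genes stood at 1.41. Those with a start peak were 25 and 65, with 11 in both, a ratio of 2.60, and those of other genes rose more, at 9.95. Peaks in Zfp genes covered 1049.9 kb in non-EA-HFSCs and 388.8 kb in non-LC-HFSCs, a ratio of 0.370, although their number was higher in non-LC-HFSCs. Between the sorted populations of the earlier age, 71 Zfp genes had a last-exon peak in both EA-HFSCs and non-EA-HFSCs, 24 in EA-HFSCs only and 62 in non-EA-HFSCs only. The ratio of EA-HFSC to non-EA-HFSC genes was 0.714 for Zfp genes and 4.63 for other genes, and 53.4% of the non-EA-HFSC Zfp genes and 28.6% of the other genes were shared. At the later age, 63 had one in both LC-HFSCs and non-LC-HFSCs, 9 in LC-HFSCs only and 40 in non-LC-HFSCs only, a ratio of 0.699 beside 0.164 for other genes. Over all 4 lists, 25 Zfp genes had a last-exon peak in non-EA-HFSCs only, 22 in EA-HFSCs only, 6 in non-LC-HFSCs only and 1 in LC-HFSCs only. In the same order, 1.67%, 5.42%, 1.99% and 0.572% of all protein-coding genes had a last-exon peak at all. The lists differ in length and single-list counts were not made for other genes, so these 4 counts do not show peaks particular to a population.

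The start peaks of EA-HFSCs lay on another kind of sequence. Leaving out those that also touched a last exon, 197 EA-HFSC peaks in Zfp genes lay at a start, and 185 of them (93.9%) overlapped an H3K4me3 peak of the same cells. Their median G+C content was 54.0% and their ratio of observed to expected CG dinucleotides 0.630, where last-exon peaks of EA-HFSCs stood at 42.5% and 0.237. In non-LC-HFSCs 45 of 54 such peaks (83.3%) lay on H3K4me3, with a CG ratio of 0.666. In non-EA-HFSCs and LC-HFSCs none of the 7 and 3 such peaks did, and the median CG ratios were 0.192 and 0.205. H3K4me3, a mark of active promoters, was itself present at 81.0% of Zfp starts in EA-HFSCs, 77.3% in LC-HFSCs, 80.2% in non-EA-HFSCs and 78.6% in non-LC-HFSCs. The overlap was not particular to Zfp genes, since 92.5% of the 8998 other genes with an H3K9me3 peak at the start in EA-HFSCs also had H3K4me3 there, against 93.1% of the 218 Zfp genes. Zfp genes with a last-exon H3K9me3 peak kept H3K4me3 at the start as often as the others in both stem cell lists, at 81.1% of 95 against 81.0% of 279 in EA-HFSCs and 77.8% of 72 against 77.2% of 302 in LC-HFSCs. In the CD34- cells the shares were lower, 73.7% of 133 against 83.8% of 241 at the earlier age and 72.8% of 103 against 80.8% of 271 at the later one. Their intervals overlap, at the earlier age only from 78.6 to 80.4%, and the differences were not tested.

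The following lines set the 200 bases before a start of each kind side by side, with each CG in capitals, on the coding strand of mm9. Zfp536, at chr7:38554772-38554971 on the minus strand, had the highest-scoring EA-HFSC peak in a Zfp gene that touches a start, and no start peak in the other 3 lists. Zfp939, at chr7:46728532-46728731 on the plus strand, had a start peak in all 4.
Zfp536: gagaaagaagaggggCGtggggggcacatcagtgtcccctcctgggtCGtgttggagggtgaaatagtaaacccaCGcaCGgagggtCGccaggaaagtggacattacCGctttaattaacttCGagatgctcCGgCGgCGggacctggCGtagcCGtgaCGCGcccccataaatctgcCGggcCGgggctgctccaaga
Zfp939: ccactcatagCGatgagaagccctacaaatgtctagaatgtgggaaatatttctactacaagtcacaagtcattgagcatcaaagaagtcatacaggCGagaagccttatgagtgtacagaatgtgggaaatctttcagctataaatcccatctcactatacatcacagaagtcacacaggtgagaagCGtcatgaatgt

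The stretch before Zfp536, a repressor of neuronal differentiation, holds 16 CG and is 61.0% G+C, and its EA-HFSC peak scored 307.12, was 4129 bp wide and lay on both H3K4me3 and H3K27me3. The stretch before Zfp939 holds 3 CG and is 41.0% G+C, and 2 finger motifs can be read in it, so the annotated start of this gene lies within finger-coding sequence. The start scores of Zfp939 were 62.97 in EA-HFSCs, 48.80 in LC-HFSCs, 267.56 in non-EA-HFSCs and 135.27 in non-LC-HFSCs. Over all Zfp genes, 82.6% of those with an EA-HFSC start peak and 55.8% of those without had 5 or more CG in these 200 bases. The difference was not particular to Zfp genes, since the same shares in other genes were 89.9% and 39.4%. For start peaks of non-LC-HFSCs, Zfp genes showed no such difference, with 69.2% of the 65 with a peak and 71.8% of those without. Only 1 in 10 of the LC-HFSC genes with a start peak (10%) and 28% of the 25 non-EA-HFSC ones had as many, while 71.4% of all Zfp genes and 60.1% of other genes had.

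Other start peaks followed the same division. Zfp668 and Zfp646, which face away from a common start region, shared an EA-HFSC peak of score 230.61 on H3K4me3 and a non-LC-HFSC score of 59.39, with none in the other lists. Zfp141 had start scores of 82.63 in EA-HFSCs and 108.24 in non-LC-HFSCs, and the latter peak also lay on H3K4me3. Zfp930 had a start score in all 4 lists, 91.74 in EA-HFSCs, 91.33 in LC-HFSCs, 985.90 in non-EA-HFSCs and 71.21 in non-LC-HFSCs, but the gene is 2638 bp long, and in non-EA-HFSCs 1 peak reaches from the last exon to the start. Zfp950 likewise scored 116.71, 88.64, 1252.73 and 61.47 over a gene of 2215 bp, and 1 finger motif can be read in the 200 bases before its annotated start. Zfp445, a KRAB protein that helps to keep imprints, had a non-EA-HFSC start score of 849.78, a non-LC-HFSC one of 95.74 and none in the stem cells.

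Genes with more fingers had a last-exon peak more often. The length of the last exon was not held fixed in this split or in those by KRAB pattern and cluster. Finger number and exon length are therefore not told apart. In non-EA-HFSCs the share was 5.26% of the 38 Zfp genes with 0 to 1 finger motif, 8.62% of 58 with 2 to 4, 26.6% of 94 with 5 to 9, 50.8% of 122 with 10 to 14 and 62.9% of 62 with 15 or more. In LC-HFSCs the same shares were 2.63%, 5.17%, 14.9%, 27% and 33.9%, and in non-LC-HFSCs 2.63%, 5.17%, 23.4%, 38.5% and 48.4%. In EA-HFSCs they were 26.3%, 10.3%, 16%, 33.6% and 37.1%, so the genes with the fewest motifs did not have the lowest share there. The share also differed by where the fingers are encoded. Of 266 genes with 2 or more fingers, all on the last exon, 46.6% had a last-exon peak in non-EA-HFSCs and 25.2% in LC-HFSCs, and of 52 with such an array but none of it on that exon, 11.5% and 7.69%. By rule of symbol the Zfp genes include 30 without any C2H2 motif in the annotated protein, 8 with 1, and a median of 9.0.

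Genes with a KRAB A-box pattern had last-exon peaks more often than those without. The pattern was searched in all annotated proteins of a gene, can miss divergent boxes, and matched 197 of the 374. It may also match by accident, since 42 genes with another symbol and fewer than 2 finger motifs matched it. Whether these hold a true box was not checked. The share with a last-exon peak was 55.3% (48.4 to 62.1%) with the pattern and 13.6% (9.28 to 19.4%) without in non-EA-HFSCs, 44.2% (37.4 to 51.1%) and 9.04% (5.64 to 14.2%) in non-LC-HFSCs, 29.4% (23.5 to 36.2%) and 7.91% (4.77 to 12.8%) in LC-HFSCs, and 33.5% (27.3 to 40.4%) and 16.4% (11.7 to 22.5%) in EA-HFSCs. At the start the shares were alike, 56.3% and 60.5% in EA-HFSCs and 16.2% and 18.6% in non-LC-HFSCs. Of the 208 Zfp genes with a last-exon peak in no list, 71 (34.1%) matched the pattern and 64 had 10 or more fingers, against 126 (75.9%) and 120 of the 166 with such a peak in at least 1 list.

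**Figure D3:**
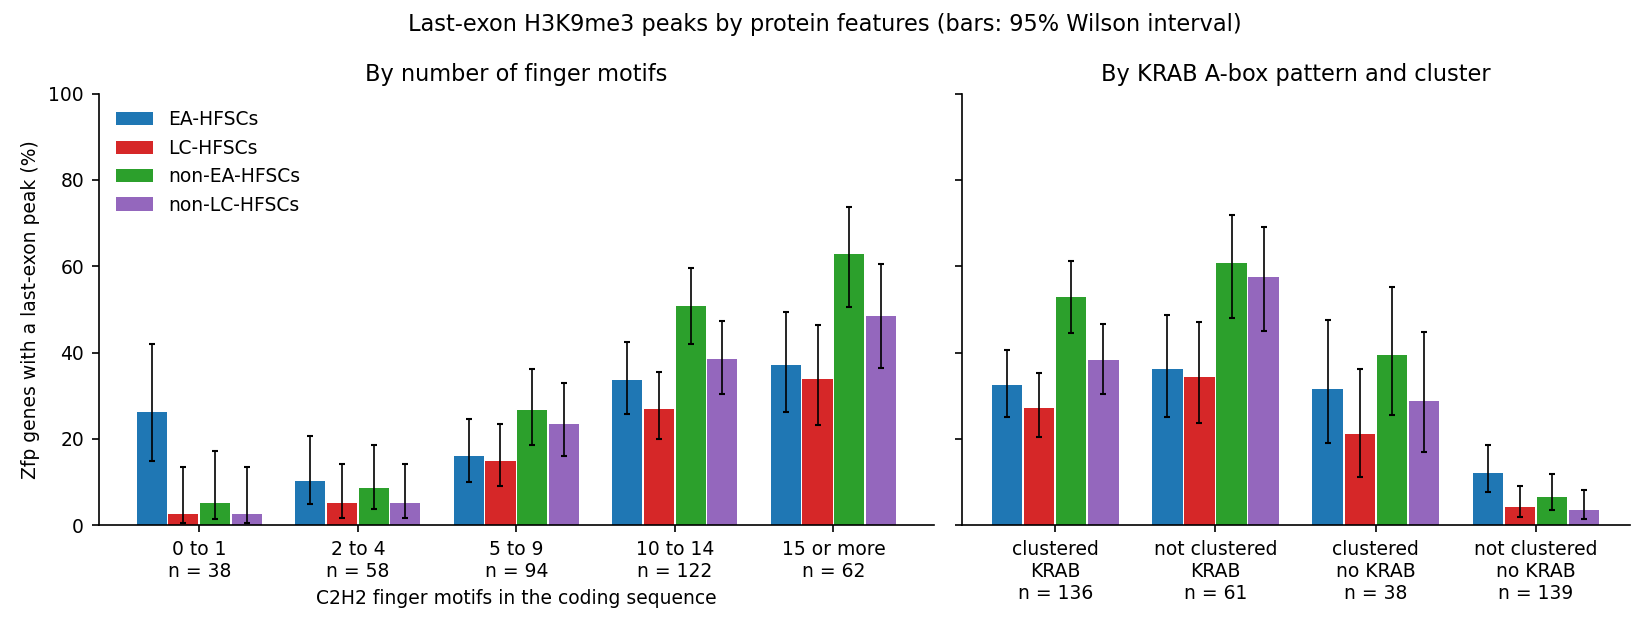
Percent of Zfp genes with an H3K9me3 peak on the last exon in each population, by number of C2H2 finger motifs (left) and by KRAB pattern and position in a cluster (right), with 95% Wilson intervals as error bars and the number of genes under each group. The bars rise from 5.26% to 62.9% with finger number in non-EA-HFSCs, and genes with neither KRAB pattern nor cluster lie at 3.60% to 12.2%.

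A cluster was taken as at least 3 Zfp genes in a row with gaps of at most 250 kb. There were 25 clusters with 174 genes, 136 of them with the KRAB pattern. Last-exon peaks were found on 87 clustered genes in non-EA-HFSCs (50.0%, 42.7 to 57.3%), 63 in non-LC-HFSCs (36.2%, 29.4 to 43.6%), 56 in EA-HFSCs (32.2%, 25.7 to 39.4%) and 45 in LC-HFSCs (25.9%, 19.9 to 32.8%). Of the 200 genes outside clusters, 23.0%, 20.0%, 19.5% and 13.5% had one. Among genes with the KRAB pattern this order turned: 60.7% of 61 lone and 52.9% of 136 clustered genes had a last-exon peak in non-EA-HFSCs, 57.4% and 38.2% in non-LC-HFSCs, 36.1% and 32.4% in EA-HFSCs, and 34.4% and 27.2% in LC-HFSCs. The intervals of these pairs overlap, in non-LC-HFSCs only from 44.9 to 46.6%. Overlap alone does not show equal shares, and the differences were not tested. Of the 139 lone genes without the pattern, 6.47%, 3.60%, 12.2% and 4.32% had one in the same order of populations.

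The largest cluster, at chr13:67139530-67927937, runs from Zfp712 to Zfp273 with 23 gene models, 21 of them with the KRAB pattern. It held 51 peaks in its genes in non-EA-HFSCs, 58 in non-LC-HFSCs, 45 in EA-HFSCs and only 25 in LC-HFSCs. A last-exon peak lay on 18 of its genes in non-EA-HFSCs, 13 in EA-HFSCs, 13 in non-LC-HFSCs and 8 in LC-HFSCs. Zfp712, its first gene, scored 941.67 on the last exon in non-EA-HFSCs, 129.86 in LC-HFSCs, 113.56 in non-LC-HFSCs and 98.04 in EA-HFSCs. Peaks covered 27.6% of the whole span in non-EA-HFSCs, 11.2% in LC-HFSCs, 7.90% in non-LC-HFSCs and 6.24% in EA-HFSCs.

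**Figure D4:**
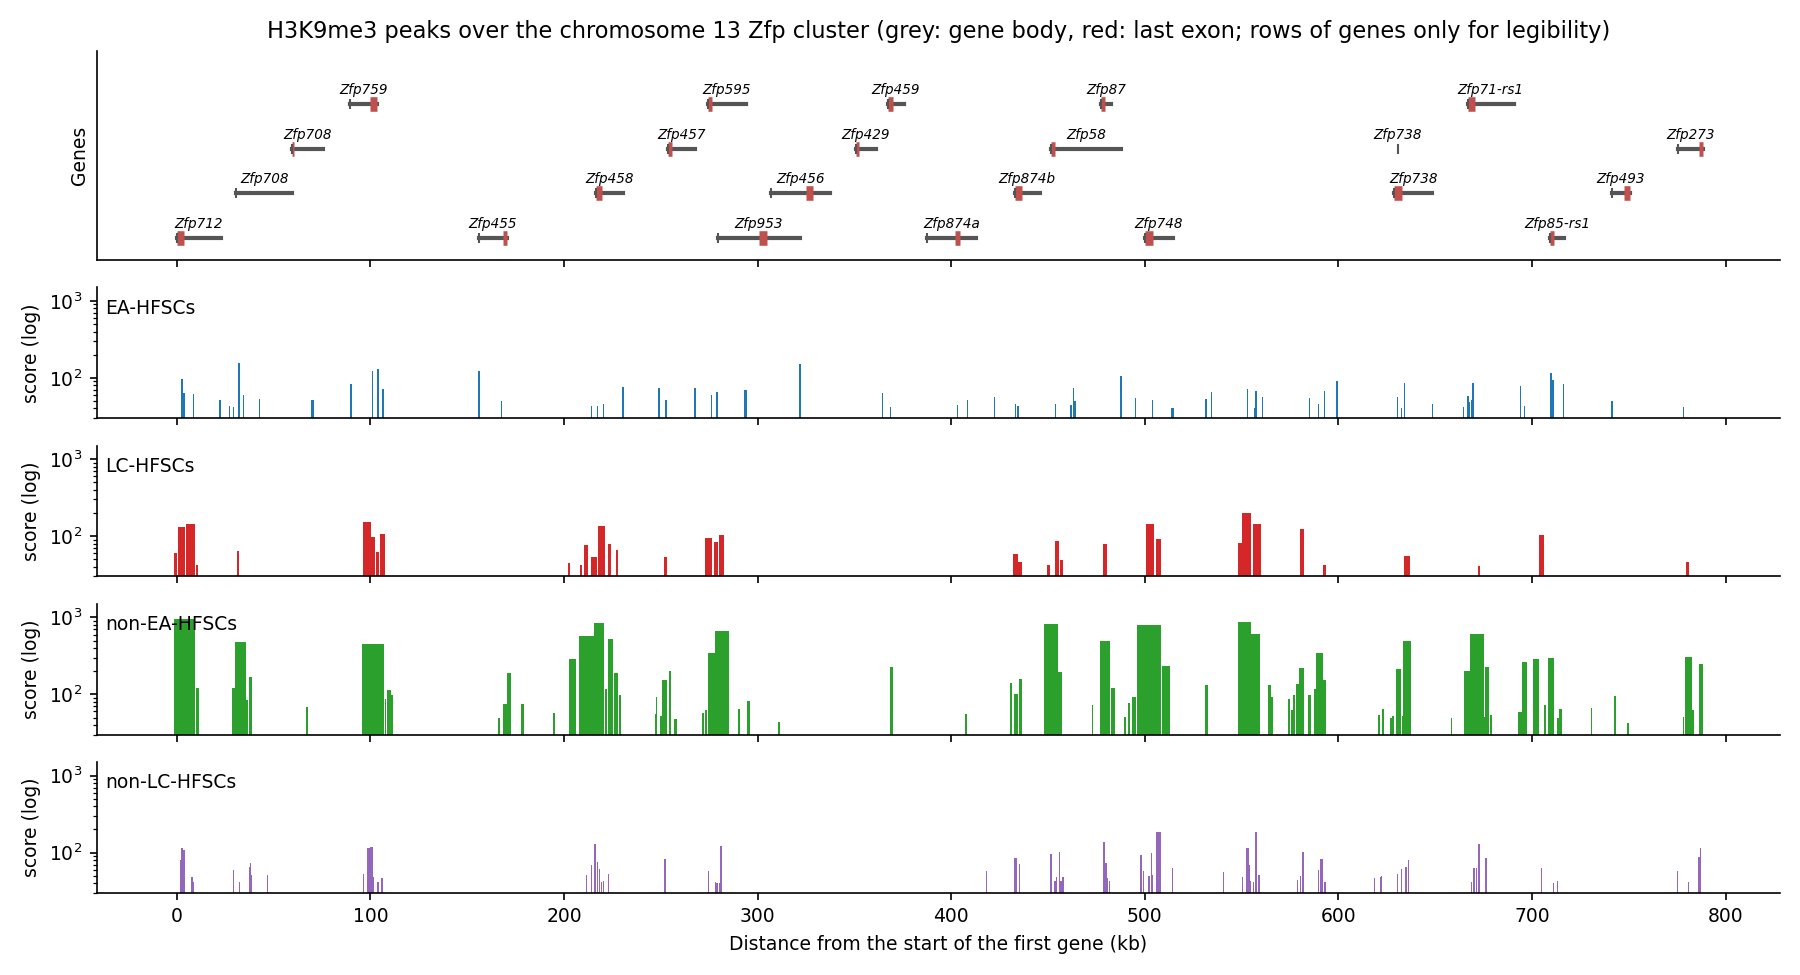
Map of the chromosome 13 cluster by distance from the start of its first gene in kb, with gene bodies in grey and last exons in red above, and below, for each population, every H3K9me3 peak as a bar of its own width whose height is its score on a log scale. Non-EA-HFSCs have 93 peaks in the span, many of them wide and up to a score of 941.67, LC-HFSCs have 38, and the narrow peaks of EA-HFSCs (73) reach 155.76 and those of non-LC-HFSCs (85) 187.73.

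The next clusters by size were both on chromosome 17. That at chr17:21520712-22593656, from Zfp677 to Zfp946, has 15 genes, all with the KRAB pattern, and last-exon peaks on 9 in non-EA-HFSCs, 5 in LC-HFSCs, 3 in EA-HFSCs and 3 in non-LC-HFSCs. That at chr17:32908181-33768724, from Zfp871 to Zfp414, has 14 genes with last-exon peaks on 8, 5, 4 and 7 in the same order. These 3 clusters also had the most peaks over the 4 lists. Not every cluster carried the mark on last exons. The 10 genes from Zfp553 to Zfp646 at chr7:134376575-135029510, with a median of 10 fingers and 4 KRAB patterns, had 8 peaks in EA-HFSCs, 2 in non-LC-HFSCs and none in the other lists, and 1 last-exon peak in all. The 7 genes from Zfp786 to Zfp746 at chr6:47769265-48036592, 6 of them with the KRAB pattern, had 5 peaks in EA-HFSCs, 2 in non-LC-HFSCs and none in LC-HFSCs or non-EA-HFSCs. Both of these clusters were named after their values had been seen.

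**Figure D5:**
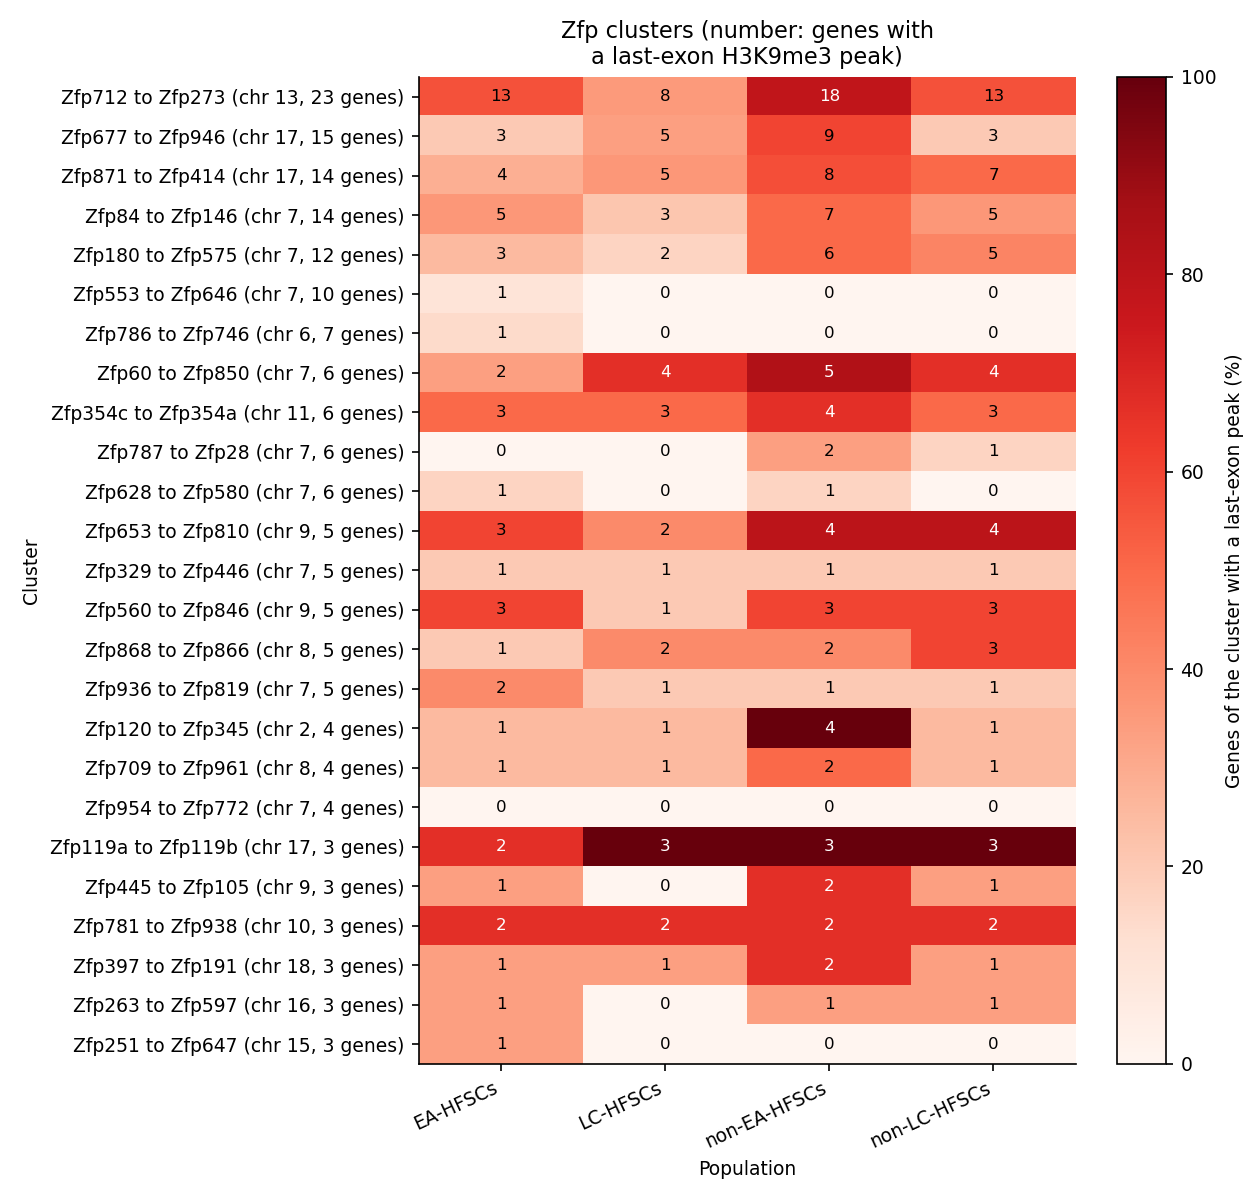
Share of the genes of each of the 25 Zfp clusters with an H3K9me3 peak on the last exon (colour, in percent) and their number (figure in the cell) in the 4 populations, ordered by number of genes. The chromosome 13 cluster reaches 18 of 23 genes in non-EA-HFSCs, and the clusters from Zfp553 to Zfp646 and from Zfp786 to Zfp746 have 1 gene with a last-exon peak in EA-HFSCs and none elsewhere.

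Long Zfp genes held a further set of EA-HFSC peaks. The 22 Zfp genes of 100 kb or more held 135 of the 599 EA-HFSC peaks (22.5%). Of the 135, 74 lay on an H3K27me3 peak of the same cells, H3K27me3 being the Polycomb mark of silenced developmental genes. These genes make up 42.8% of the summed length of Zfp genes, a larger share than their 22.5% of the peaks. The share on H3K27me3 was 54.8% (46.4 to 63%) in the long Zfp genes, 16% over all peaks in Zfp genes, 28.6% in other genes of that length and 28.4% over the whole EA-HFSC list. The 135 peaks lay in 19 genes, and peaks of 1 gene are not independent, so this interval is too narrow. How far single genes carry the share was not tested. The 22 long genes held 6 peaks in LC-HFSCs, none of them on H3K27me3, 36 in non-EA-HFSCs, 1 of them on it, and 35 in non-LC-HFSCs, 6 of them on it. Zfp521, a regulator of several progenitor cell fates, had 30 EA-HFSC peaks, the most of any Zfp gene, and one of score 336.14 lay on both H3K4me3 and H3K27me3. No peak in a Zfp gene lay on both of those marks in the other lists. Its relative Zfp423, a regulator of fat cell commitment, had the highest EA-HFSC last-exon score, 342.45, over H3K27me3, and none in the other lists. Its last exon of 698 bp encodes none of the 14 finger motifs that the pattern used here found in this gene. Zfp618 held the highest EA-HFSC peak in a Zfp gene, with a score of 460.44 in an intron and H3K27me3 on it, and it overlapped no peak of another list.

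The highest-scoring peak that overlapped none of the other lists was, in non-EA-HFSCs, one of score 304.48 in an intron of Zfp442, in non-LC-HFSCs one of 121.17 in Zfp84, which touched its last exon, and in LC-HFSCs one of 50.18 in an intron of Zfp579. The EA-HFSC one is the Zfp618 peak above. Zfp180 had the second highest last-exon peak of non-LC-HFSCs, 399.40, with 813.14 in non-EA-HFSCs, 142.90 in EA-HFSCs and no LC-HFSC peak there.

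Other families give a frame for these shares. Genes with 5 or more fingers and another symbol had a last-exon peak in 23.8% (18.1 to 30.7%) of 172 in non-EA-HFSCs, 16.9% in non-LC-HFSCs, 14.0% in LC-HFSCs and 12.8% in EA-HFSCs. The 278 Zfp genes with as many fingers stood at 45.3% (39.6 to 51.2%), 35.6%, 24.5% and 28.4%. Of 16 Zscan genes, which carry a SCAN domain, 1 or 2 had a last-exon peak per population, of 9 Zkscan genes at most 1, of 38 Zbtb genes at most 3 and of 17 Klf genes at most 1. Over all protein-coding genes the last-exon share was 5.42% in EA-HFSCs, 1.99% in non-LC-HFSCs, 1.67% in non-EA-HFSCs and 0.572% in LC-HFSCs. With so few genes, these counts do not place those families below it. Olfactory receptor genes, which form even larger clusters, had one in 12 of 1113 in EA-HFSCs (1.08%), 6 in non-LC-HFSCs, 2 in non-EA-HFSCs and 0 in LC-HFSCs. None of 15 gene models of the H3K9me3 machinery, among them Trim28, Setdb1, the heterochromatin proteins Cbx1, Cbx3 and Cbx5 and the methyltransferases Suv39h1, Suv39h2, Ehmt1 and Ehmt2, had a last-exon peak in any list, which with so few genes is near the all-gene shares. In the body, 11 of the 15 had a peak in EA-HFSCs, 5 in non-LC-HFSCs, 1 in non-EA-HFSCs and 0 in LC-HFSCs. Over all protein-coding genes the body shares were 51.1%, 22.2%, 13.4% and 1.45% in the same order.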

How the data were processed

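Per the labels and the study's methods, the authors trimmed single-end reads with Trimmomatic 0.22, aligned them to mm9 with Bowtie2, pooled 2 experimental replicates and called peaks with MACS against IgG. The deposited value of a peak is a score (10 times −log10 of its p-value). No counts or depths were used here, and the 4 IgG samples have no list here, so 12 lists of the 16 samples were used. The study states that reads did not saturate H3K9me3 peak calling and that LC-HFSCs had more reads than EA-HFSCs.

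Peaks were joined to GENCODE vM1 genes on NCBIM37, the same assembly as mm9, at an overlap of at least 1 bp, with Python 3.11.15, pandas 2.3.3, scipy 1.17.1 and pysam 0.24.0. No peak passed a chromosome end, and 71 to 297 H3K9me3 peaks per list on unplaced sequence could meet no gene. A finger is C-X2 or X4-C-X12-H-X3 or X5-H in the translated longest coding sequence, and fingers of other spacing are not counted. Of the Zfp genes, 4 symbols occur more than once. The steps were tested on simulated peaks. Named peaks are the 3 highest last-exon and 2 highest start peaks of each list, the highest in only 1 list, and the highest with all 3 marks. Named genes are the 10 with the lowest rank sum among those with last-exon peaks in 4 lists, and the 25 with the highest LC-HFSC score, with the 3 largest clusters. The members and lists were chosen with earlier results of these data known.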

Additional observations from a re-analysis of the deposited data

Results flagged for a closer look

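From the EA to the LC ages, 3 counts moved one way in the CD34+ stem cells and the other way in the CD34- cells, and this difference was not tested, since each population has 1 list. The number of peaks in Zfp genes changed by -450 between EA-HFSCs and LC-HFSCs (599 to 149) and by 86 between non-EA-HFSCs and non-LC-HFSCs (369 to 455). The number of Zfp genes with a peak in the body changed by -177 (266 to 89) and by 14 (161 to 175). The number of Zfp genes with a peak at the start changed by -208 (218 to 10) and by 40 (25 to 65). Zfp genes with a last-exon peak fell in both, from 95 to 72 and from 133 to 103. The same opposite movement was seen outside Zfp genes. The whole lists went from 42277 to 1414 peaks and from 17873 to 18236, and other genes with a start peak stood at ratios of 0.00256 and 9.95.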

How the results depend on the processing

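Of 96 recomputed values, 66 kept to within 1.5 times (counts) or within their counting interval (shares), and 30 moved. When every list was limited to its 1414 best peaks, Zfp genes with a body peak were 11 in EA-HFSCs, 105 in non-EA-HFSCs and 81 in non-LC-HFSCs, and clustered genes with a last-exon peak 1 in EA-HFSCs and 40 in non-LC-HFSCs. The share of peaks at the start was then 41.7% in EA-HFSCs, 9.87% in non-EA-HFSCs and 9.76% in non-LC-HFSCs, and that on the last exon 16.7%, 63.8% and 60.2%. With a score of at least 100, body genes were 76 in EA-HFSCs, 34 in LC-HFSCs and 67 in non-LC-HFSCs, clustered last-exon genes 10, 19 and 34, start shares 57.1% in EA-HFSCs, 8.82% in non-EA-HFSCs and 6.38% in non-LC-HFSCs, and last-exon shares 75% in LC-HFSCs, 56.9% in non-EA-HFSCs and 61.7% in non-LC-HFSCs. A score of at least 50 gave 41.1% at the start in EA-HFSCs and 41.7% on the last exon in non-LC-HFSCs. A start window of 3 kb gave 38.7% in EA-HFSCs, 13.8% in non-EA-HFSCs and 18.0% in non-LC-HFSCs. With at least 50% of the peak in the gene body, non-EA-HFSCs had 3.28% at the start and 35.8% on the last exon. Stricter scores and fewer peaks remove peaks by construction, and the cause of other moves was not tested. No paired analysis was possible because each population has 1 pooled list. The lists give no depth, so fewer peaks in a list need not mean fewer marked sites, and this was not tested. For LC-HFSCs against EA-HFSCs the study states that read number was not the reason. It also reports less H3K9me3 in LC-HFSCs by western blot.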
